A study of Mus musculus with 20 samples.

Results

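Codon enrichment was compared between Qtrt1-/- and wild-type mice in the 10 ribosome footprint libraries of the series, of 20 libraries in all; the other 10 were input RNA. Every footprint library entered the comparison, 5 Qtrt1-/- and 5 wild type, and each contributed 1 enrichment value for each of the 61 sense codons at each position from −10 to 10. The libraries came from the hippocampus of 3 Qtrt1-/- and 3 wild-type females, aged 6 months and 21 days except 1 wild-type female at 6 months and 22 days. They also came from 2 Qtrt1-/- and 2 wild-type males, with 1 male of each genotype aged 6 months and 18 days and 1 aged 5 months and 16 days. No treatment or other allele was given for any mouse, and lysates contained cycloheximide, an inhibitor of elongation that holds ribosomes on mRNA. Nothing in the labels limits the Qtrt1 loss to 1 tissue or cell type.

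Qtrt1 encodes the subunit of tRNA-guanine transglycosylase that carries its catalytic activity. This enzyme replaces a guanine in certain tRNAs with queuine, a base that mammals take from food and gut bacteria. The resulting nucleoside, queuosine, sits at the wobble position of the anticodon in the tRNAs for tyrosine, asparagine, histidine and aspartate. There it pairs with the third base of the codon, which is C or U in all 8 codons of these amino acids: UAC and UAU for tyrosine, AAC and AAU for asparagine, CAC and CAU for histidine, GAC and GAU for aspartate. In mammals the queuosine of the tyrosine tRNA carries a galactose and that of the aspartate tRNA a mannose, while those of the asparagine and histidine tRNAs carry no sugar. A ribosome that waits longer on a codon yields more footprints there, so footprints over codons are used to compare how long ribosomes dwell.

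An enrichment of 1 means that footprints were as frequent with that codon at that position as elsewhere. The deposited tables do not say which ribosomal site a position stands for. Profiles recomputed from the authors' table of footprints per codon matched the deposited ones only if position 1 was taken as the codon 1 upstream of the codon that table lists: across 61 codons, Pearson's r was 0.981 to 0.991 per library in that orientation. Position 0 is then the listed codon itself. Differences below are of log2 enrichment, Qtrt1-/- minus wild type, with the standard error of the limma fit, and calls were made at adjusted p-values under 0.05 (Benjamini-Hochberg).

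Footprint counts of Qtrt1 ran from 1 to 10 in Qtrt1-/- and from 28 to 94 in wild-type libraries, so all 10 libraries lay on the side of their label. Input RNA libraries held 24 to 29 Qtrt1 counts in Qtrt1-/- and 66 to 88 in wild type, so some Qtrt1 reads remained in Qtrt1-/-. Footprint libraries held 5357812 to 15517982 counts, of which 1071976 to 3032432 were footprints in the codon tables. All 10 hippocampal marker genes were detected. Their summed level was 840 to 1278 CPM (counts scaled to the total of the library) in wild-type females. In Qtrt1-/- females it was 1284 to 1384, without overlap. In males it was 1290 to 1460 in wild type and 1417 to 1666 in Qtrt1-/-. The 16 markers of choroid plexus, the tissue in the ventricle beside the hippocampus, were detected as well. Their sum was 773.8 to 7996 CPM in wild-type females, 3649 to 13580 in Qtrt1-/- females and 12290 to 17480 in the 4 males. The 14 striatal markers summed to 470.1 to 1211 in wild-type females, 212.4 to 642.4 in Qtrt1-/- females and 204.8 to 252.9 in males. None of these markers was at 0 throughout. The ranges of these sums shifted with genotype in females and with sex. Between female genotypes the choroid plexus and striatal ranges overlapped, and the hippocampal ranges did not. The part of these sums in the codon differences was not tested. Wild-type male 1 was the deepest library. The median absolute log2 difference between the codon profiles of wild-type males 1 and 2 was 0.080, the largest within any group. It was 0.065 between the Qtrt1-/- males and 0.031 to 0.052 between females of the same genotype. Results that turn on wild-type male 1, or on wild-type females 1 and 2 with the lowest choroid plexus sums, are given with and without those libraries.

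The balance of enrichment between positions 1 and 0 differed between genotypes at some of the queuosine codons. The balance of a codon is its log2 enrichment at position 1 minus that at position 0, so a change in a library that touches both positions alike drops out of it. Over both sexes the limma fit called 5 of 61 codons (8.2% of codons), and these were both tyrosine codons (UAC and UAU), both aspartate codons (GAC and GAU) and the asparagine codon AAC. None of the other 53 codons was called. The balance of both tyrosine codons and AAC was higher in Qtrt1-/-, and that of both aspartate codons was lower. A higher balance need not mean less enrichment at position 0. Over both sexes the differences of UAC and AAC were positive at both positions, although neither was called at position 0, as given below. With 1 library left out the count was 4 to 6, of which at most 1 was not a queuosine codon, except without wild-type male 1, where it was 31, with 7 queuosine codons and 24 others. Leaving out either wild-type male leaves 1 wild-type male and no spread within its group, and only the removal of wild-type male 1 gave the higher count. The cause of that count was not tested.

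The tyrosine codon UAC had the greatest change. Its balance was 0.40, 0.39 and 0.37 in Qtrt1-/- females against −0.16, −0.12 and −0.11 in wild-type females. In males it was 0.32 and 0.28 in Qtrt1-/- against −0.10 and −0.18 in wild type. Every Qtrt1-/- library was above 0 and every wild-type library below it, so UAC footprints favoured position 1 in 1 genotype and position 0 in the other. The difference was 0.52 ± 0.04 in females (SE, n = 3 and 3, limma adjusted p = 4.69e-05), where 3 of 61 codons were called (4.92%). It was 0.44 ± 0.05 in males (SE from the pooled spread, n = 2 and 2, limma adjusted p = 0.000788). There 3 codons were called as well (4.92%). Over both sexes the UAC difference was 0.48 ± 0.03 (limma adjusted p = 1.35e-05), and it was called in all 18 alternative fits.

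The tyrosine codon UAU leaned toward position 1 in every library, from 1.06 to 1.24 in wild-type and 1.33 to 1.39 in Qtrt1-/- females. Its balance was 1.08 and 1.30 in wild-type males and 1.46 and 1.55 in Qtrt1-/- males. The genotypes did not overlap within either sex, and the difference over both was 0.27 ± 0.06 (limma adjusted p = 0.0167). With 11 of 18 alternative fits calling it, UAU rested on less than UAC. Leaving out 1 library ended the call for Qtrt1-/- female 1 (0.26, limma adjusted p = 0.0546), Qtrt1-/- male 2 (0.25, 0.0956), wild-type female 1 (0.25, 0.0507) and wild-type female 3 (0.26, 0.0504), as did leaving out wild-type females 1 and 2 together (0.29, 0.0527). It also missed the threshold when libraries were centred on their median codon (0.18, adjusted p = 0.31) and when codon GC content was adjusted for (0.16, adjusted p = 0.54).

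The asparagine codon AAC crossed 0 in the same way as UAC. Its balance was 0.12, 0.15 and 0.17 in Qtrt1-/- females against −0.14, −0.12 and −0.05 in wild-type females, and 0.05 and 0.08 against −0.13 and −0.19 in males. The groups did not overlap in either sex. The difference was 0.25 ± 0.04 in females (limma adjusted p = 0.00549), 0.22 ± 0.05 in males (limma adjusted p = 0.0378) and 0.24 ± 0.03 over both (limma adjusted p = 0.00145). Centring on the median codon ended the call (0.15, adjusted p = 0.37). That centring lowers every balance difference by 0.09 over both sexes, 0.12 in females, because the library medians themselves differed by that much.

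Aspartate codons went the other way. The balance of GAU was 0.76, 0.82 and 0.80 in wild-type females and 0.40, 0.42 and 0.45 in Qtrt1-/- females. In males it was 0.71 and 0.67 in wild type against 0.48 and 0.47 in Qtrt1-/-. All 5 Qtrt1-/- libraries lay below all 5 wild-type libraries. The difference was −0.37 ± 0.04 in females (limma adjusted p = 0.000189), −0.22 ± 0.04 in males (limma adjusted p = 0.0357) and −0.29 ± 0.03 over both (limma adjusted p = 0.000185). GAC ran from −0.09 to 0.09 in wild-type and from −0.34 to −0.26 in Qtrt1-/- females. In males it was 0.19 and −0.01 against −0.20 and −0.33, again without overlap. The GAC difference over both sexes was −0.32 ± 0.06 (limma adjusted p = 0.00694). Neither the female nor the male contrast of the same fit passed (limma adjusted p = 0.0607 in females and 0.0554 in males). Both aspartate codons were called in all 18 alternative fits.

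**Figure D1:**
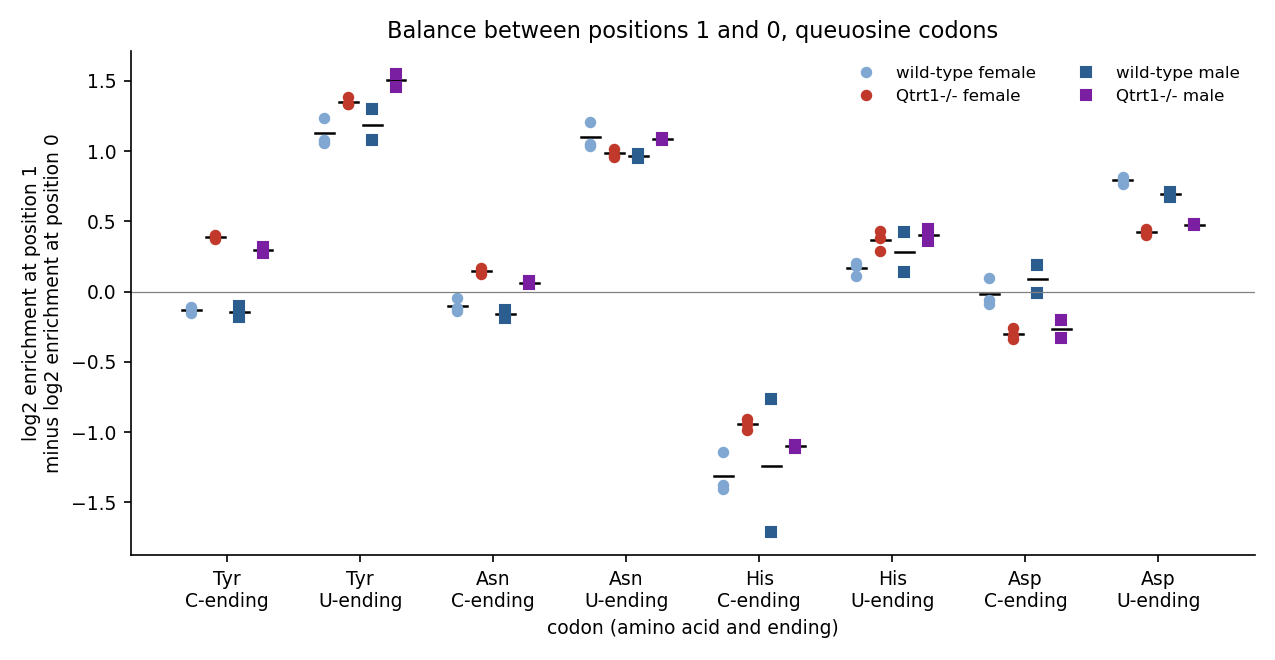
Balance of the 8 queuosine codons, as log2 enrichment at position 1 minus position 0, in each of the 10 libraries (points) with group means (bars). Both C-ending tyrosine and asparagine codons sit below 0 in wild type and above 0 in Qtrt1-/-, while both aspartate codons sit lower in Qtrt1-/- and the C-ending histidine codon spreads widely between the wild-type males.

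The remaining 3 queuosine codons were not called. The asparagine codon AAU differed by −0.12 ± 0.05 in females and 0.12 ± 0.06 in males, which left 0.00 ± 0.04 over both (limma adjusted p = 0.98). The histidine codon CAC differed by 0.25 ± 0.16 over both sexes (limma adjusted p = 0.46). Its 2 wild-type males were −0.76 and −1.71, on either side of the Qtrt1-/- males at −1.09 and −1.11, so the male difference rested on which wild-type male was used. The histidine codon CAU differed by 0.16 ± 0.06 (limma adjusted p = 0.19). In females all 3 Qtrt1-/- libraries (0.29 to 0.43) lay above the wild-type libraries (0.11 to 0.20) at CAU, and the males overlapped. At this precision a change at CAC of the size seen at AAC could not be told from none.

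None of the 6 control codons was called in its balance. These codons, UUC and UUU of phenylalanine, UGC and UGU of cysteine, and AGC and AGU of serine, also end in C or U and are read by tRNAs without queuosine. Their differences ran from −0.21 to 0.08 in females, from −0.08 to 0.14 in males and from −0.11 to 0.07 over both sexes (median −0.01), against −0.32 to 0.48 for the 8 queuosine codons (median 0.20) and a median of 0.04 for all 61 codons. UUC differed by −0.15 ± 0.06 in females and 0.14 ± 0.08 in males, so its mean over both sexes, −0.00, hides opposite signs. Genotypes were separated in both sexes at 7 of 61 codons in the same direction (11.5% of codons). The 5 called codons were among them, and the others were GUC for valine (0.08, limma adjusted p = 0.19) and UGG for tryptophan (0.11, limma adjusted p = 0.13), both picked out after their values were seen. Across codons the female and male balance differences had Pearson's r = 0.52 over all 61 codons and 0.12 over the 53 without queuosine. The points of that correlation share the libraries, so it is a description only.

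**Figure D2:**
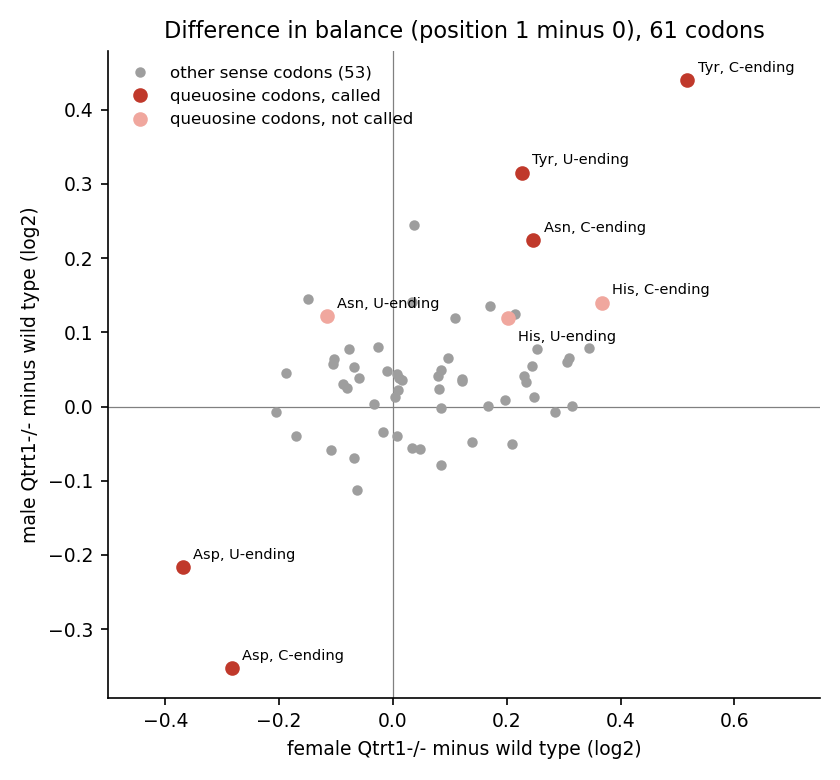
Difference in balance (log2, Qtrt1-/- minus wild type) in females (x axis) and males (y axis) for the 61 sense codons, each point 1 codon. Of the 5 called queuosine codons (dark red), UAC of tyrosine stands alone at the upper right and both aspartate codons at the lower left, while UAU and AAC lie above 0 in both sexes with uncalled codons further to the right.

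The balance calls were repeated with every pair of neighbouring positions adjusted together, a scan added after the data were seen. From −10 to 10, 8 of 1220 neighbour differences were called over both sexes (0.656%). At the step from 0 to 1 all 3 calls (4.92% of codons) were queuosine codons: UAC of tyrosine, AAC of asparagine and GAU of aspartate. The balance calls of GAC and UAU were lost under this wider adjustment. In males UAC was the only call at that step (1 of 61 codons, 1.64%), against 3 with adjustment over 61 codons. At the step from 1 to 2, UAC was the only call, with a difference of −0.57 ± 0.04 (limma adjusted p = 0.000562), which returns the UAC profile to the level of its surroundings. The other 4 were single calls of codons without queuosine: serine UCG from −7 to −6, serine AGC from −4 to −3, glycine GGG from 5 to 6 and proline CCG from 9 to 10. At positions 11 to 30 on either side of the ribosome, 4 of 2318 neighbour differences were called (0.173%).

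At position 1 itself the same codons led, with fewer calls. Over both sexes 2 of the 61 codons were called at position 1 (3.28%), with p-values adjusted over all 1281 codons and positions. These were UAC, by 0.61 ± 0.06, or 52.5% more enrichment, and AAC, by 0.39 ± 0.04, or 30.7% more (limma adjusted p = 0.00522 for each). UAC enrichment was 0.954, 0.949 and 0.945 in Qtrt1-/- females and 0.581, 0.582 and 0.621 in wild-type females. In males it was 0.807 and 0.935 in Qtrt1-/- and 0.650 and 0.547 in wild type. In wild type UAC thus lay well under the neutral value of 1, ranked 21 of 61 from the lowest, and in Qtrt1-/- libraries it was 0.807 to 0.954.

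AAC enrichment was near neutral in wild type, at 0.989, 1.01 and 1.05 in females and 1.06 and 0.985 in males. In Qtrt1-/- it was 1.33, 1.37 and 1.37 in females and 1.28 and 1.35 in males, above every wild-type library. Both calls held when any 1 of the 10 libraries was left out, although the count at position 1 became 7 without Qtrt1-/- male 1 and 29 without wild-type male 1. With the replicate number as a block, a number that in males goes with age, both were lost (limma adjusted p = 0.14 for each). Without wild-type females 1 and 2 neither passed, although the differences were 0.58 for UAC and 0.36 for AAC (limma adjusted p = 0.14 for each). Adjustment for codon GC content kept UAC (0.48, adjusted p = 0.000484) and ended the call of AAC (0.26, adjusted p = 0.0738).

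For the female contrast of the fit to all 10 libraries, 6 of 61 codons were called at position 1 (9.84%). The tyrosine codons UAC and UAU, the asparagine codon AAC and the serine codon UCC were higher, and the aspartate codons GAC and GAU were lower. Without Qtrt1-/- female 1 or Qtrt1-/- female 2, or without wild-type females 1 and 2, none was called, and without wild-type female 1 or wild-type female 2 there were 2 and 1. Without either wild-type male there were 27. With 1 library left out the female differences stayed at 0.66 to 0.71 for UAC and 0.39 to 0.44 for AAC (highest limma adjusted p = 0.0751 for each), and at 0.29 to 0.38 for UCC. For the male contrast of the same fit none was called by limma (0.0%), where 5 codons had an unadjusted p under 0.05. The male differences were 0.54 ± 0.10 for UAC and 0.36 ± 0.06 for AAC, near the female ones of 0.68 ± 0.08 and 0.41 ± 0.05. The difference in response between the sexes was called for 0 of 1281 pairs by limma (0.0%, 84 at an unadjusted p under 0.05), and for 1, at position −4, when p-values were adjusted within each position. UCC differed by 0.32 ± 0.07 in females and 0.03 ± 0.09 in males, a gap between the sexes that was not called.

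Enrichment at position 1 also differed between genotypes for the other queuosine codons without passing over both sexes. UAU was higher by 0.25 ± 0.05 (limma adjusted p = 0.0781), CAU by 0.26 ± 0.09 (limma adjusted p = 0.15), CAC by 0.19 ± 0.15 (limma adjusted p = 0.43) and AAU by 0.15 ± 0.05 (limma adjusted p = 0.12). The change was −13.4% for GAC (−0.21 ± 0.04 in log2, limma adjusted p = 0.0781) and −9.33% for GAU (−0.14 ± 0.05 in log2, limma adjusted p = 0.13). The 6 control codons ranged from −0.09 to 0.18 with none called, and the median over all 61 codons was 0.05.

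Queuosine codons spanned the whole range of wild-type enrichment at position 1, which sets the scale for these changes. CAC was the lowest of all codons (0.270 ± 0.029, SD, n = 3 females, and 0.279 ± 0.112, SD, n = 2 males), followed by the isoleucine codons AUU and AUC. The glycine codon GGA was the highest (3.22 ± 0.17, SD, n = 3 females, and 3.59 ± 0.64, SD, n = 2 males), then GAU (3.03 ± 0.20 and 2.54 ± 0.07) and the glycine codon GGU. GAU thus had a high wild-type level and UAC a low one.

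At position 0 the group means of the aspartate codons were higher in Qtrt1-/-, where at position 1 they were lower. GAU at position 0 differed by 0.15 ± 0.06 in females and 0.16 ± 0.07 in males (over both, limma adjusted p = 0.11), and GAC by 0.11 ± 0.06 over both (limma adjusted p = 0.26). GAU enrichment there was 1.96, 1.98 and 1.86 in Qtrt1-/- against 1.81, 1.81 and 1.62 in wild-type females, and 1.71 and 1.79 against 1.58 and 1.56 in males, without overlap. GAC overlapped in females, at 2.22, 2.26 and 2.30 in Qtrt1-/- against 2.18, 2.29 and 2.08 in wild type. In males GAC was 2.47 and 2.45 in Qtrt1-/-, against 1.97 in wild-type male 1 and 2.43 in wild-type male 2. With 1 library left out the GAC difference over both sexes ran from 0.04 to 0.19. AAC at position 0 was higher by 0.15 ± 0.03 (limma adjusted p = 0.0781), UAC by 0.13 ± 0.06 (limma adjusted p = 0.19) and AAU by 0.15 ± 0.04 (limma adjusted p = 0.0895). UAU of tyrosine differed there by −0.02, and the histidine codons CAC and CAU by −0.06 and 0.10. No codon was called at position 0 over both sexes by limma (0.0%, with 17 at an unadjusted p under 0.05), when p-values were adjusted over all 1281 pairs. The balance was adjusted over 61 codons only. Adjusted in that way over the codons of position 1, GAC and UAU passed there over both sexes (limma adjusted p = 0.0168 for each) and GAU did not (limma adjusted p = 0.0994).

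The mean of positions 0 and 1 gives a reading that does not depend on which of the pair a footprint was set to. Over both sexes it called 2 of 61 codons (3.28%), AAC by 0.27 ± 0.04 (limma adjusted p = 0.00104) and UAC by 0.38 ± 0.06 (limma adjusted p = 0.00138). For GAC and GAU it was −0.04 and −0.02, since their changes at the 2 positions had opposite signs. Without Qtrt1-/- male 1 there were 13 calls and without wild-type male 1 there were 32. Averaged over the wider window from −1 to 3, no codon was called.

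**Figure D3:**
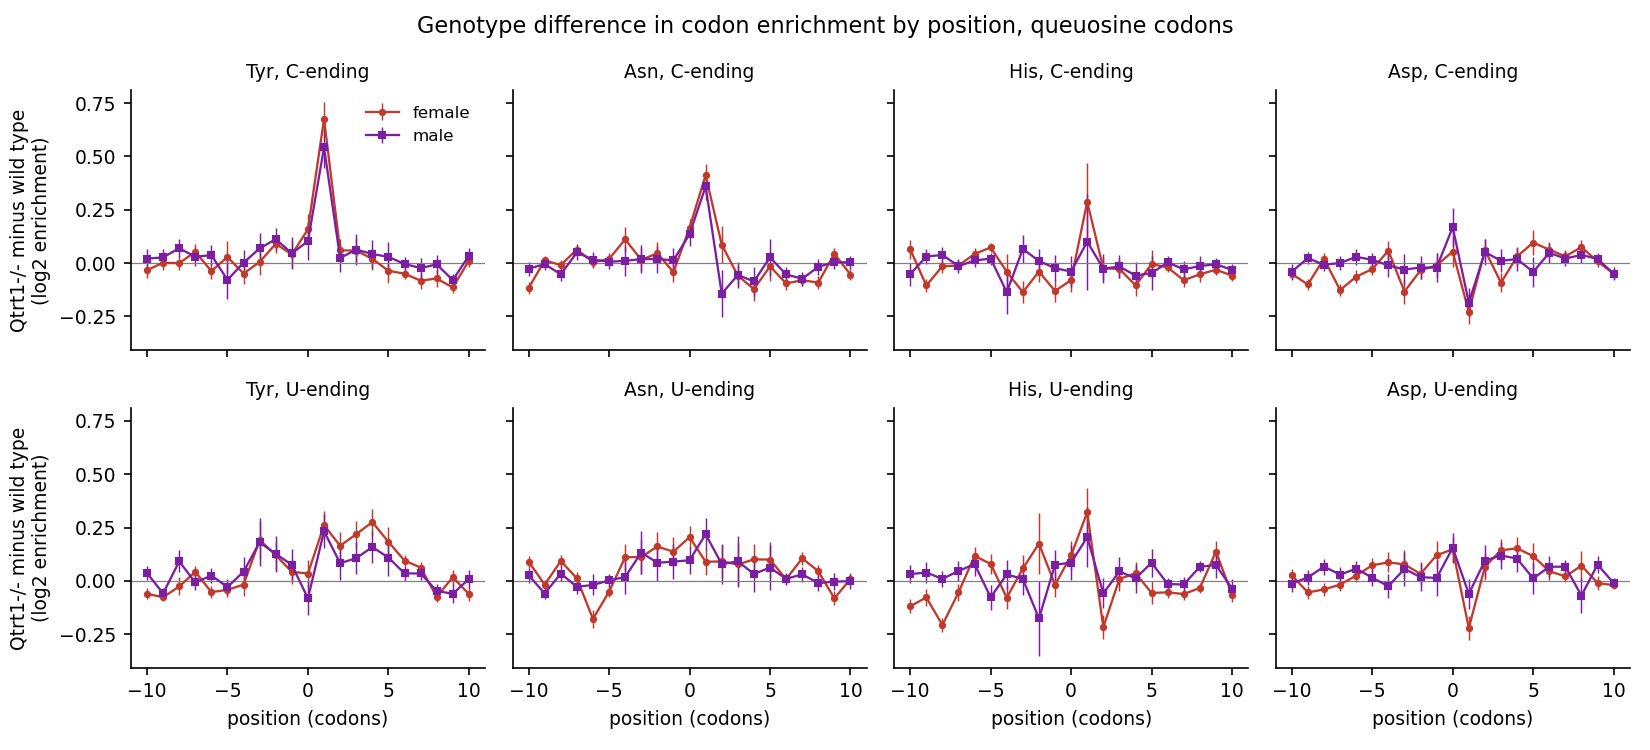
Genotype difference in log2 enrichment (Qtrt1-/- minus wild type, ± SE of the fit) at positions −10 to 10 for each queuosine codon, females and males. The tyrosine and asparagine C-ending codons peak at position 1 (0.68 and 0.41 in females), the aspartate codons dip there, and the U-ending tyrosine codon shows a broad rise.

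Within an amino acid, the C-ending and U-ending codons did not change alike for tyrosine and asparagine. The gap between the members of a pair, log2 enrichment of the C-ending minus the U-ending codon, cancels what the pair shares. At position 1 the tyrosine gap was −1.03, −1.01 and −0.97 in Qtrt1-/- females against −1.45, −1.49 and −1.32 in wild-type females, and −1.06 and −1.08 against −1.24 and −1.52 in males. UAC thus stayed below UAU in every library, and the gap was narrower by 0.36 ± 0.05 in Qtrt1-/- (limma adjusted p = 0.00174). The asparagine gap narrowed by 0.23 ± 0.04 (limma adjusted p = 0.00512). These were the leading calls over both sexes among the 336 gaps tested over all positions (23 called, 6.85%).

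The aspartate and histidine gaps at position 1 differed by −0.07 ± 0.05 and −0.07 ± 0.06 and were not called. The arginine pair CGC and CGU was the only other call at position 1, with a gap lower by 0.20 ± 0.05 (limma adjusted p = 0.0321). Further queuosine gaps were called away from position 1, among them tyrosine at 4 (−0.19) and asparagine at 7 (−0.14). The count of gap calls moved with single libraries. It was 2 to 4 without Qtrt1-/- female 1, Qtrt1-/- female 2, Qtrt1-/- male 2 or wild-type female 2, and 12 to 14 without wild-type male 2, wild-type female 1 or wild-type female 3. Leaving out wild-type male 1 gave 82. Without wild-type females 1 and 2 together none was called.

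Over all 61 codons and 21 positions, females gave many calls, about as often far from the ribosome as near it. The limma fit called 9.84% of 1281 codon and position pairs in females, 46 of them higher (3.59%) and 80 lower (6.25%) in Qtrt1-/-. At positions 11 to 30 on either side, beyond the usual reach of a footprint, it called 206 of 2440 (8.44%). The size of the differences was not as great there: their SD over codons was 0.24 at position 1 in females, and 0.05 to 0.09 at the distant positions. In males the limma fit called 0 of 1281 (0.0%, 29 at an unadjusted p under 0.05), and the SD over codons was 0.13 at position 1 and 0.03 to 0.05 at the distant positions.

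Over both sexes 3 of 1281 pairs were called (0.234%), UAC and AAC at position 1 and the serine codon AGU at position −4. Without Qtrt1-/- female 3 there were 12, and 6 with wild-type male 2 omitted. Omitting wild-type male 1 gave 268, and omitting Qtrt1-/- male 1 called 9.6% of the pairs. AGU at −4 was higher by 0.26 ± 0.05 (limma adjusted p = 0.0161), by 0.40 ± 0.06 in females and 0.12 ± 0.07 in males. Its call was lost without Qtrt1-/- female 1 (0.24, adjusted p = 0.0917), Qtrt1-/- male 2 (0.24, adjusted p = 0.28) or wild-type female 1 (0.27, adjusted p = 0.0616). With enrichment recomputed over the 2791 mRNAs that had enough footprints in all libraries, AGU at −4 fell to 0.06 (adjusted p = 0.38). UAC and AAC at position 1 were 0.56 (adjusted p = 0.00455) and 0.33 (adjusted p = 0.00368) over those same mRNAs. At the distant positions 3 of 2440 were called over both sexes (0.123%).

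**Figure D4:**
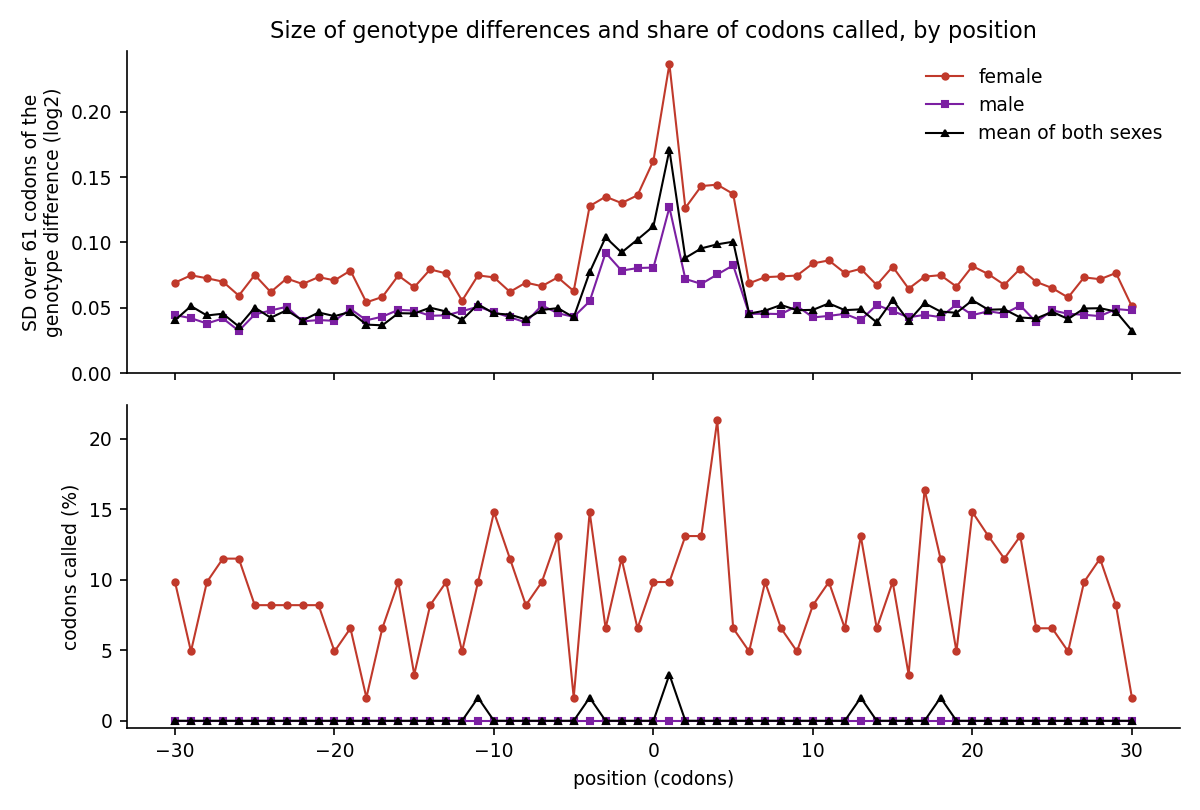
Upper panel, SD over 61 codons of the genotype difference (log2) at positions −30 to 30; lower panel, percent of codons called by limma. The differences widen between −4 and 5 and peak at position 1 (0.24 in females, 0.13 in males), while the share of codons called in females is 1.64% to 21.3% near the ribosome and 1.64% to 16.4% beyond position 10.

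Queuosine codons were called in females about as often as others: 10.1% of their codon and position pairs were called, against 9.79% of the pairs of the other 53 codons. The glycine codon GGG was lower at position 5 by 0.47 ± 0.08 on the log2 scale (−0.47, limma adjusted p = 0.0101), at 3 (−0.42), at 4 (−0.36) and at 0 (−0.33), and male differences there ran from −0.19 to −0.02. The phenylalanine codon UUC was higher at position 0 by 0.37 ± 0.10 in females (limma adjusted p = 0.0432) and differed by −0.02 ± 0.12 in males. The isoleucine codon AUA was higher at −2 (0.34), the arginine codon AGG lower at 4 (−0.33) and the alanine codon GCC lower at −2 (−0.32). By number of positions called, the serine codon AGC came first with 8, then the arginine codon CGU with 6. The female count was 0 without Qtrt1-/- female 1, 2 without Qtrt1-/- female 2, and 9, 5 and 56 without wild-type females 1, 2 and 3 in turn. It was 2 without wild-type females 1 and 2 together. Without either wild-type male it was 258, each leaving 1 wild-type male and no spread within that group.

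Codon composition ran alongside these female calls. Among codon and position pairs with only G and C in the codon, 29 were called lower in females (17.3%) and 1 higher (0.595%). Among those with no G or C, 9 were called higher (6.12%) and 3 lower (2.04%). At position 1 the median difference in females was 0.35 for codons with 0 G or C bases, 0.19 with 1, −0.00 with 2 and −0.22 with 3. In males the medians had the same order, 0.14, 0.07, −0.02 and −0.11. The trend was present from about −3 to 5 and weak beyond: across 61 codons, Pearson's r of the female difference with the GC count was −0.68 at position 1 and −0.78 at position 0, and −0.35 to 0.06 at positions 11 to 30 on either side.

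Among the queuosine codons, the U-ending tyrosine and asparagine codons hold no G or C. UAC, AAC of asparagine, CAU of histidine and GAU of aspartate hold 1. After adjustment for GC count, UAC at position 1 was 0.48 higher relative to the trend. UAU at position 1 went from 0.25 to −0.02 and AAU from 0.15 to −0.12. At position 1 GAC was −0.20 and GAU −0.27. Whether GC content has a part in these differences was not tested. Of the 5 balance calls 4 held under the adjustment, with 0.40 for UAC of tyrosine, 0.16 for AAC of asparagine, and −0.35 and −0.37 for the aspartate codons GAC and GAU.

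**Figure D5:**
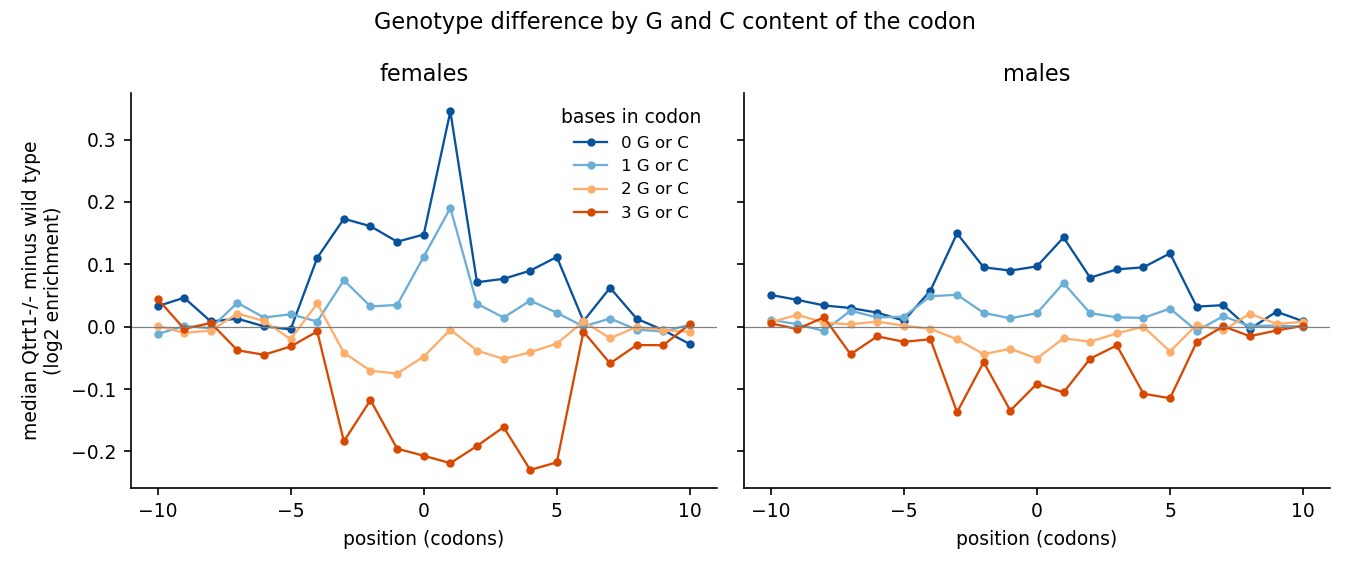
Median genotype difference in log2 enrichment (Qtrt1-/- minus wild type) for codons with 0, 1, 2 or 3 G or C bases at positions −10 to 10, females (left) and males (right). Codons without G or C lie above codons made only of G and C from about −3 to 5 in both sexes, with a difference at position 1 of 0.35 against −0.22 in females and 0.14 against −0.11 in males.

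The agreement of the sexes was also highest near the ribosome. Across 61 codons the female and male differences had Pearson's r = 0.74 at position 1 and 0.77 at −1. Over positions −10 to 10 the median r was 0.44 (0.07 to 0.77). At positions 11 to 30 on either side the median r was 0.21 (−0.22 to 0.61), so the ranges overlapped. Without the queuosine codons r at position 1 was 0.70, so codons without queuosine shared a pattern between the sexes as well. At position 1 the female difference ran against the level of the codon in wild-type males (r = −0.59), and the male difference against the level in wild-type females with r = −0.17. These are descriptions across codons of the same libraries, and carry no test.

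The spread of enrichment over codons, a measure of how unequally ribosomes occupied them, was not told apart between genotypes. At position 1 the SD over 61 codons was 0.75, 0.78 and 0.77 in Qtrt1-/- females and 0.91, 0.95 and 0.81 in wild-type females. In males it was 0.85 and 0.84 in Qtrt1-/-, and 0.71 and 1.02 in wild type, the lowest and the highest of all libraries. Qtrt1-/- females lay below all wild-type females (exact two-sided permutation p = 0.10, the smallest that 20 assignments allow). Over both sexes the difference was −0.07 (exact two-sided permutation p = 0.40, smallest possible 0.0167). After adjustment over the 21 positions the lowest p was 0.65. Without wild-type male 1 the difference was −0.15 and the exact permutation p was 0.0167, and without wild-type male 2 it was 0.00 (exact permutation p = 0.98).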

How the data were processed

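Hippocampal ribosome footprints were sequenced by the submitters after nuclease treatment of lysates, with input RNA alongside. Tools named in the submitters' processing notes were Bowtie 1.0.0 and 1.2.2, SAMtools 0.1.19, Trimmomatic 0.39 and cutadapt 1.8.1; for the genome build and the counting program, none is given in these sources. For each library the authors deposited the mean enrichment of each codon as a ratio at positions −90 to 90; the sources do not say what the word unbiased in their tables corrects for. The authors also deposited footprint counts per codon of each mRNA, from codon 15 on, and raw counts per gene, used here for depth, markers and Qtrt1. Deposited SD tables describe mRNAs within a library and were not used. Stop codons were left out of the tests.

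Ratios were taken to log2 with no pseudocount and fitted with limma 3.58.1 in R 4.3.3 on 4 group means of sex and genotype, with 1 variance prior per position. The mean of both sexes weights them equally. P-values were adjusted over 1281 codon and position pairs, 61 codons for the balance and the mean of positions 0 and 1, or 336 gaps. The spread over codons used exact permutation within sex (120 assignments). On simulated differences over both sexes, with 1281 pairs, the fit recovered 89% of those of 0.2 and 100% of those of 0.4. The simulation changed 200 pairs, whereas the data gave 3 calls, and its recovery is not specific to position 1. Median SE over both sexes was 0.062 at position 1, against a median of 0.026 over positions −10 to 10. Recovery of a difference of 0.2 at position 1 is thus not given by these shares. Recomputed profiles used mRNAs with at least 20 footprints; 10992 of 11113 mRNAs matched a GENCODE M21 transcript and 99.94% of listed codons matched its sequence. No coordinates were used. Named codons were all 8 queuosine codons at positions 0 and 1, the 12 largest female calls and all calls over both sexes, the 6 control codons, and the 3 highest and 3 lowest wild-type codons at position 1. Members, lists and tests were chosen with earlier results of these data known. The labels name separate animals. Interval estimates cover the spread between animals only, and neither molecular identifiers nor duplicate removal is stated.

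Alternatives were the linear ratio, centring on the median codon, division by the codon's mean at 31 to 90 positions away, other limma priors, adjustment within a position, a replicate block, each library left out and each sex alone. After the data were seen, an adjustment for codon GC count, the removal of wild-type females 1 and 2, a scan of neighbouring positions and counts over shared mRNAs were added.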

Additional observations from a re-analysis of the deposited data

Results flagged for a closer look

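The balance of the asparagine codon AAU between positions 1 and 0 moved in opposite directions in the sexes. In females all 3 Qtrt1-/- libraries (0.96 to 1.02) lay below all 3 wild-type libraries (1.04 to 1.21), and in males both Qtrt1-/- libraries (1.08 and 1.09) lay above both wild-type libraries (0.95 and 0.98). The female minus male difference was −0.24 ± 0.08 (SE), which did not pass (limma adjusted p = 0.57 over 61 codons). The phenylalanine control codon UUC did likewise. In females its balance was 0.43 to 0.48 in Qtrt1-/- and 0.53 to 0.72 in wild type, and in males 0.44 and 0.49 against 0.25 and 0.39. Its female minus male difference was −0.29 ± 0.10 (SE), which did not pass either (limma adjusted p = 0.57). No other queuosine or control codon showed opposite directions in every sample of the sexes in its balance, and no queuosine codon did at position 0 or 1.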

How the results depend on the processing

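The 5 balance calls over both sexes became 3 with centring on the median codon, and 4 to 31 with 1 library left out, the 31 without wild-type male 1. The 3 calls over both sexes at positions −10 to 10 became 14 on the linear ratio, 42 with adjustment within each position, 1 without wild-type females 1 and 2, and 2 to 268 with 1 library left out. The 2 at position 1 became 4 on the linear ratio, 4 with adjustment within the position, 1 with GC adjustment, 0 without wild-type females 1 and 2, and 2 to 29 with 1 library left out. The 2 for the mean of positions 0 and 1 became 4 on the linear ratio, 5 over shared mRNAs, 0 over −1 to 3 and 2 to 32 with 1 library left out.

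The female calls became 357 with females alone, 33 over shared mRNAs, 2 without wild-type females 1 and 2, and 0 to 258 with 1 library left out. The 6 female calls at position 1 became 31 with females alone, 0 without wild-type females 1 and 2 and 0 to 27 with 1 library left out. Male calls, 0 by limma, became 2 with adjustment within each position (both at position 1), 1 with GC adjustment (at position 1), and 0 to 28 with 1 library left out (0 to 4 at position 1). Sex differences, also 0, became 1 with adjustment within each position and 0 to 1 with 1 library left out, also at position 1. The 23 gap calls became 15 on the linear ratio, 10 with 1 variance prior, 40 with adjustment within each position, 4 over shared mRNAs, 15 with GC adjustment, 0 without wild-type females 1 and 2, and 2 to 82 with 1 library left out. The spread difference of −0.07 ran from −0.15 to 0.00 (0.0043 without wild-type male 2). With adjustment over every pair of neighbouring positions, the 5 balance calls over both sexes became 3. The cause of these moves was not tested.

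Some signs turned. The AAU balance was −0.085 with centring, −0.11 with GC adjustment, −0.021 over shared mRNAs, and −0.012 to 0.031 with 1 library left out, below 0 without Qtrt1-/- female 3, wild-type females 1 or 3, or wild-type male 2. UAU at position 0 ran from −0.072 to 0.024, above 0 without Qtrt1-/- male 1 or wild-type male 1. CAC at position 1, 0.19 with all libraries, ran from −0.016, without wild-type male 2, to 0.40. With GC adjustment AAU went from 0.15 to −0.0071 at position 0 and from 0.15 to −0.12 at position 1, and UAU from 0.25 to −0.023 at position 1.

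The labels do not say that replicate numbers pair samples, although males of the same number had the same age. In females same-numbered deviations from group means had r of −0.39 to −0.20, and no library correlated best with its own number. In males, with 2 libraries per group, the deviations mirror each other and the check is void. With the replicate block the 5 balance calls stayed at 5, all shared, the 2 window calls at 2, the female calls became 11 (0 at position 1), the 3 and 2 calls over both sexes became 0 and 0, and the 23 gap calls 4. UAC and AAC at position 1 then had adjusted p = 0.14. The spread difference of −0.07 had an exact permutation p of 0.38 under that pairing. The number of animals, 2 males per genotype, and the fewest footprints in a library, 1071976, limit what small codon changes could be told apart.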

Other observations

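The codon tables also list UGA, a stop codon that selenoprotein mRNAs read as selenocysteine within the reading frame. Only 3 to 7 UGA sites per library carried footprints, with 8 footprints in the library that had fewest. At position 1 UGA enrichment was 4.28, 3.42 and 3.21 in Qtrt1-/- females, 3.47, 2.39 and 4.06 in wild-type females, 4.20 and 4.99 in Qtrt1-/- males and 3.77 and 2.74 in wild-type males. The genotypes overlapped in females, and with so few sites no comparison was made.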
